A study of Mus musculus with 4 samples.

Results

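Macrophages from the mouse peritoneum were exposed for 6 h to palmitic acid, a saturated fatty acid of 16 carbons, or to oleic acid, a monounsaturated fatty acid of 18 carbons with 1 double bond. The comparison was the log2 value of the palmitic acid array minus that of the oleic acid array, gene by gene. It asks how the response to a saturated fatty acid differs from the response to a monounsaturated one given at the same dose and time. The largest difference belonged to Arrdc3, which codes for an alpha-arrestin, and was a 4.95-fold lower value with palmitic acid. Integrated stress response genes, genes of glutathione and thioredoxin defence and the AP-1 gene Jun were among those higher with palmitic acid. D-type cyclin genes, receptors for nucleotides and lipid mediators, the high-affinity IgG receptor gene Fcgr1 and the T cell costimulatory ligand gene Icosl were among those lower with it.

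The cells came from wild-type C57BL/6 mice aged 8 to 12 weeks that had received 1 mL of 4% thioglycolate 3 days before harvest. Cells still adherent after 3 h were cultured with 500 µM palmitic, oleic or linoleic acid bound to bovine serum albumin (BSA), or without fatty acid. The control is labelled as BSA alone, but the protocol describes its vehicle as ethanol and KOH, which all fatty acid stocks also contained. Each of the 4 groups is 1 array hybridised with RNA pooled from 3 samples, and the labels do not say whether these were separate mice. A difference is therefore between 2 arrays, with no estimate of replicate spread and no test, interval or p-value. Palmitic and oleic acid were the only pair of compounds compared, and they differ in chain length as well as in the double bond, so that these structural features cannot be told apart. Adherent cells elicited in this way are mostly macrophages but can hold other peritoneal cells. In such a mixed sample, fewer cells of a type and less RNA per cell cannot be told apart.

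Genes were taken from probes with exactly 1 listed gene, and several probes of a gene were averaged. To be kept, a gene needed at least 1 array at or above log2 7.09, the median of all values in the table. This left 11174 of 19938 genes. At the edge of the filter, Cyb561 had its highest value at 7.0911 and was kept, and Vamp1 at 7.0909 and was not. A gene is called higher or lower below when the arrays differed by at least 1.5-fold, a log2 difference of 0.585. At that edge Fabp3 lay just past the threshold at 0.586 and Zbtb11 just short of it at 0.585. On the lower side Zcchc24 lay just past it at -0.586 and Gfpt2 just short of it at -0.582.

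Saturated fatty acids such as palmitic acid are incorporated into membrane phospholipids and ceramides, and an excess of them is known to disturb the endoplasmic reticulum and mitochondria of macrophages. Oleic acid is readily esterified into triglyceride and stored in lipid droplets. Stress at the endoplasmic reticulum, amino acid shortage and other insults activate kinases that phosphorylate the translation factor eIF2. Bulk translation then falls while the transcription factor ATF4 is made and switches on its target genes, which together form the integrated stress response. Oxidants and electrophiles release another factor, NRF2, from its inhibitor KEAP1, and NRF2 then activates genes of glutathione synthesis and of thiol repair.

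With palmitic acid, 203 of the kept genes (1.82%) were called higher than with oleic acid and 185 (1.66%) were called lower. At 2-fold there were 30 higher (0.268%) and 32 lower (0.286%). Higher genes were 52.3% of the 388 genes beyond 1.5-fold, a share of genes within 1 pair of arrays. That share depended on the scaling. It was 42.5% (162 higher and 219 lower) after a repeated quantile normalisation. Centring each array on its median over probes with 1 gene, a setting chosen after seeing the data, made it 70.3% (313 higher and 132 lower). The median difference over all kept genes was -0.02, and 45.9% of them lay above 0. The robust SD of the differences was 0.211, beside 0.110 between the control and linoleic acid arrays, which is given as a description of another pair of arrays. The robust SD was 0.155 in the dimmest group of 3 equal groups of genes, 0.240 in the middle group and 0.217 in the brightest. Of the 18 called genes with several probes, 18 had every probe on the same side of 0 and 12 had every probe past 1.5-fold.

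**Figure D1:**
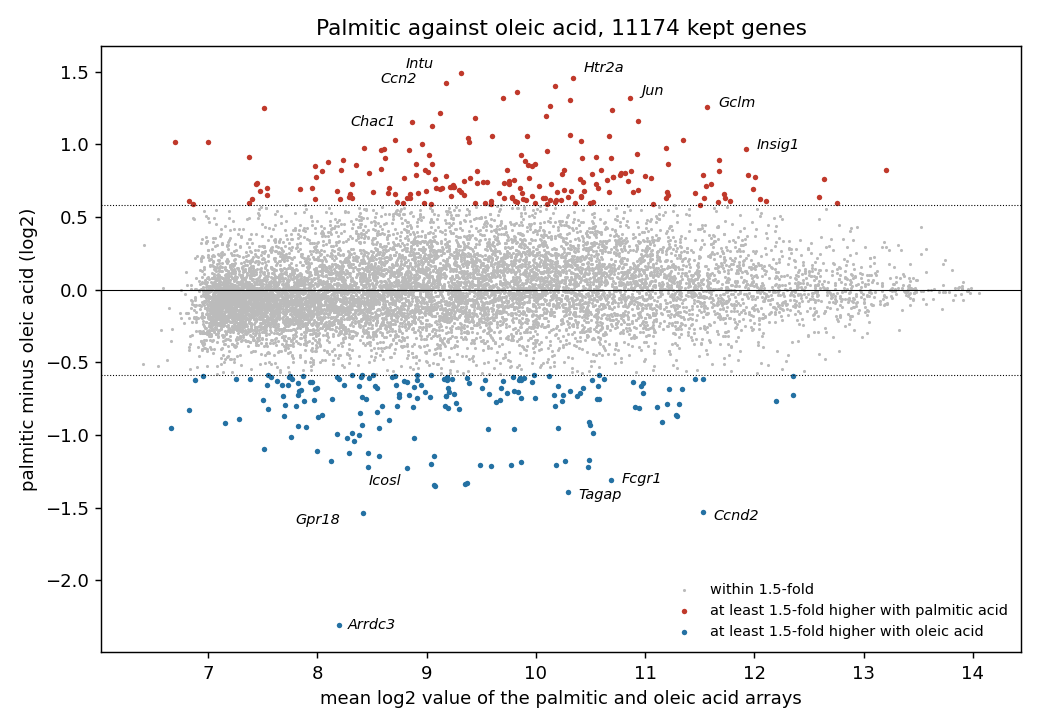
Palmitic minus oleic acid difference (log2, vertical axis) against the mean log2 value of those arrays (horizontal axis) for 11174 kept genes, 1 point per gene. Dotted lines mark 1.5-fold, and the 203 genes above the upper line and 185 below the lower one are coloured. Arrdc3 lies apart from all others at -2.31.

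In most called genes the palmitic acid array was the highest or the lowest of the 4. Among the 203 higher genes, the palmitic acid array was the highest of all 4 in 198 and the oleic acid array the lowest in 116. Among the 185 lower genes, palmitic acid was the lowest in 179 and oleic acid the highest in 108. Over all kept genes palmitic acid was the highest in 30.5% and the lowest in 38.1%. The selection on this difference itself favours such an order, so these counts are descriptions. The higher genes had a median of 0.69 for palmitic acid minus the control and of -0.04 for oleic acid minus the control. The lower genes had medians of -0.61 and 0.15. These differences share the control array. The palmitic acid array was further from the control than the oleic acid array in 189 of the 203 higher and 153 of the 185 lower genes, and in 7275 of all kept genes.

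A stricter view asks for an array at least 1.5-fold away from each of the other 3. The palmitic acid array was so far above the others in 105 genes (0.94%) and below them in 89 (0.796%). For the oleic acid array the counts were 9 above (0.0805%) and 3 below (0.0268%). The genes with palmitic acid furthest above every other array were Jun, Plagl1, Rsbn1, Rgcc and Sesn2. Those with palmitic acid furthest below were Gpr18, Icosl, Cxcl9, Tagap and Hdc, the last of which codes for the enzyme that makes histamine. Oleic acid was furthest above the others at Arrdc3, Unc119, Dusp6, Slc16a6 and Klf10. It was furthest below them at Insig1, Tmem178, Pdp2, Gclm and Kcnj2, of which Gclm and Kcnj2 did not reach 1.5-fold against every array. Kcnj2 was dim, at 6.30 with oleic acid and 6.78 with palmitic acid.

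**Figure D2:**
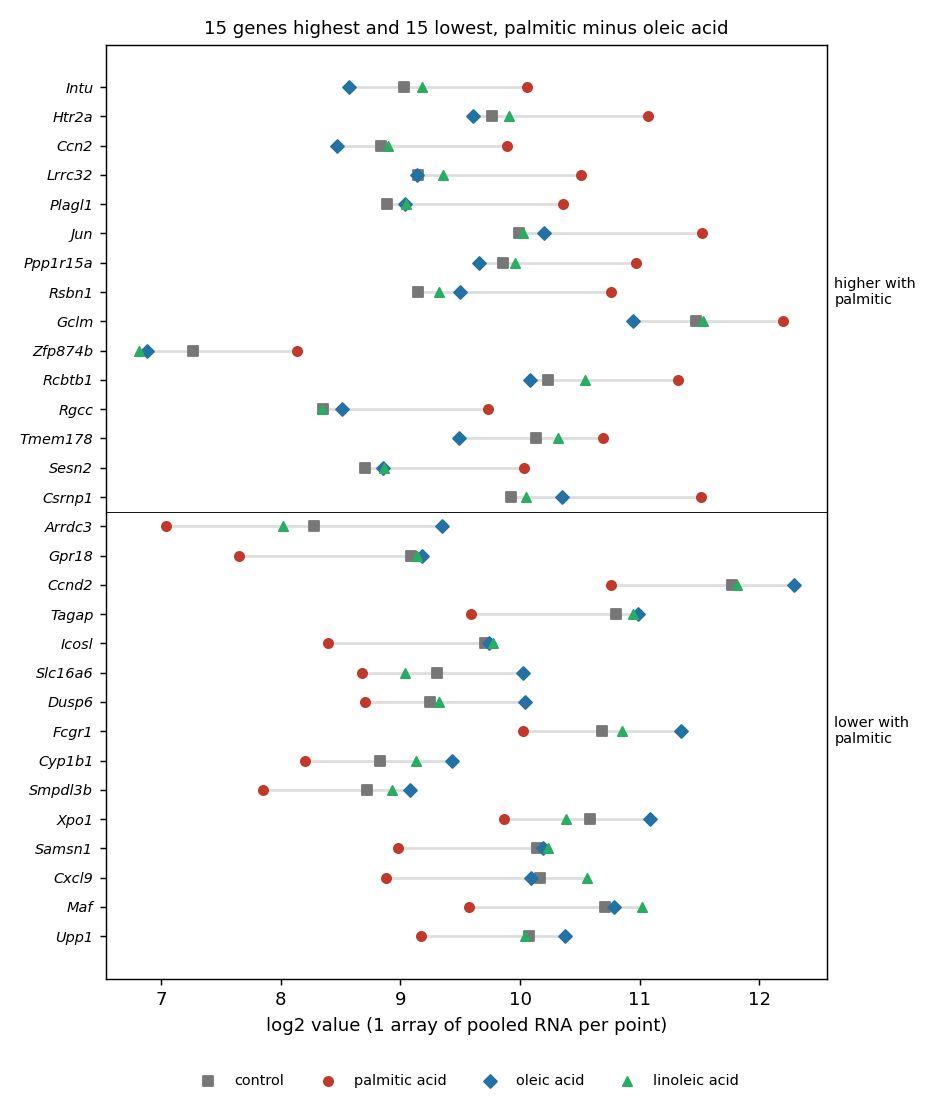
Log2 values (horizontal axis) in the 4 arrays for the 15 genes highest and the 15 lowest in palmitic minus oleic acid, 1 row per gene and 1 point per array. Palmitic acid is the highest point in all 15 upper rows and the lowest in all 15 lower rows. The oleic acid point is the lowest in 8 of the upper rows and the highest in 11 of the lower rows.

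Among the 15 highest genes, several belong to none of the gene lists described below. Intu, which codes for a planar polarity protein needed for cilia, was at log2 10.06 with palmitic acid and 8.57 with oleic acid, against 9.03 in the control and 9.18 with linoleic acid. Plagl1, an imprinted zinc finger gene, was at 10.36 with palmitic acid, while the other arrays lay between 8.88 and 9.04. Rgcc, a regulator of the cell cycle, was at 9.73 with palmitic acid and between 8.34 and 8.51 in the other arrays. In these genes palmitic acid alone stood away from a narrow group of arrays. Intu was the exception, since its oleic acid value also lay below the control. Rsbn1 differed by 1.27, Rcbtb1 by 1.24, Tmem178 by 1.20 and the zinc finger gene Zfp874b by 1.25. In Zfp874b the oleic acid value of 6.88 lay below the filter level.

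Those genes of the integrated stress response that were called were all higher with palmitic acid. Of 29 kept genes on the list, 5 (17.2%) were called higher and 0 lower, beside 1.82% and 1.66% of all kept genes. On the list 21 lay above 0 and the median was 0.09, beside -0.02 over all kept genes. The same shares over all kept genes, 1.82% higher and 1.66% lower, apply to the counts of every list below, also where they are not repeated. All lists were chosen with earlier results of these data known, so nothing is read from such gaps. The 5 called genes were Ppp1r15a, Sesn2, Chac1, Ddit3 and Trib3. Ppp1r15a, also known as GADD34, codes for the phosphatase subunit that reverses eIF2 phosphorylation. Its value was 10.97 with palmitic acid and 9.66 with oleic acid, with 9.86 in the control and 9.96 with linoleic acid, a difference of 1.31 or 2.48-fold. Sesn2, whose product restrains mTORC1, was at 10.03 with palmitic acid and between 8.71 and 8.86 in the other arrays. Chac1, a glutathione-degrading enzyme gene, was at 9.62 with palmitic acid, 8.49 with oleic acid, 8.36 in the control and 8.16 with linoleic acid. Palmitic acid was thus well separated in all of these, and the other arrays did not share its high value.

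Ddit3 codes for the transcription factor CHOP, and Trib3 for a pseudokinase that CHOP and ATF4 induce. Ddit3 was at 9.57 with palmitic acid and 8.87 with oleic acid, and the control was at 8.66 and linoleic acid at 8.85. Trib3 was at 8.29 with palmitic acid and between 7.53 and 7.67 elsewhere. Its difference of 0.63 became 0.57 after a repeated quantile normalisation. Atf4 itself was at 10.04 with palmitic and 9.70 with oleic acid, a difference of 0.34, and Atf3 differed by 0.43. Asns, which codes for asparagine synthetase and is a classical ATF4 target, differed by 0.23. Ddit4, an inhibitor of mTORC1 that stress also induces, differed by 0.00. The high values were therefore not shared by all targets on the list.

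The promoters of the called genes were searched for the composite element bound by ATF4 with C/EBP proteins, written TGATGNAA and read on both strands, in the 250 bases before and 50 bases after each start in a RefSeq promoter table of build GRCm38.p6. It was present in the promoters of 2 of the 5 called genes, Chac1 and Trib3, and not in these windows of Ddit3, Sesn2 and Ppp1r15a. Of the 29 promoters of kept list members, 24.1% held it. Among all promoters of the table the share was 3.97%, and among those of kept genes 2.22%. It was 2.08% for genes called higher and 2.54% for genes called lower. The Chac1 promoter is shown because its match lies upstream of the start, at chr2:119350992-119351241 on the plus strand, with the match in capitals beginning 193 bases before the start. For Trib3 the match begins at base 15 after the start, and 30 bases around it are shown from chr2:152344028-152344057 on the minus strand. A match describes letters and not a bound site.

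Chac1: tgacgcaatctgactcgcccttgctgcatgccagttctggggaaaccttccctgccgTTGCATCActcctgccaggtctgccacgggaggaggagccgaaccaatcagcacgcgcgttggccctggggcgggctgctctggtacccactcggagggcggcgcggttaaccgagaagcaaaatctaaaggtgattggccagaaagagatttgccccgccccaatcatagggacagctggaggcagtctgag
Trib3: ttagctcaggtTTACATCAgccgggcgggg

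Other lists of protein quality control held few calls, all of them higher with palmitic acid. Aminoacyl-tRNA synthetase genes, which load amino acids onto tRNAs and include ATF4 targets, lay above 0 in 15 of 18, with a median of 0.18 and 0 called. They ranged from -0.15 (Kars) to 0.44 (Cars). Of 33 genes for chaperones, folding and degradation at the endoplasmic reticulum, 27 lay above 0, with a median of 0.08, 2 called higher and 0 lower. The called genes were Dnajb9, a cofactor of the chaperone BiP, and Sec24d, a coat protein of transport vesicles. Dnajb9 was at 10.84 with palmitic acid, 9.78 with oleic acid, 9.82 in the control and 9.65 with linoleic acid. Hspa5, the gene of BiP itself, differed by 0.29, and Xbp1, whose spliced form drives many of these genes, by -0.11. Of 21 cytosolic chaperone and heat shock factor target genes, 17 lay above 0, with a median of 0.20 and 2 called higher, Hspa4l by 0.68 and Dnajb4 by 0.71. Proteasome subunit genes lay above 0 in 25 of 31, with a median of 0.14 and 0 called, and the highest was Psmd11 at 0.53.

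Of 30 autophagy genes and targets of the lysosomal regulator TFEB, 3 were called higher and 0 lower, with a median of 0.06. Fnip1 and Fnip2 code for partners of folliculin, which signals amino acid supply to mTORC1. Fnip2 was at 11.44 with palmitic acid and between 10.47 and 10.69 in the other arrays. Fnip1 was at 11.53 with palmitic acid and 10.88 with oleic acid, and linoleic acid lay between them at 11.15. Atg14, a subunit of the kinase complex that starts autophagosomes, was at 8.61 with palmitic acid and between 7.86 and 7.97 elsewhere. Among 19 amino acid transporter genes, Slc38a1 was called higher, by 0.76, and 0 were called lower. Its brightest probe alone gave 0.58.

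**Figure D3:**
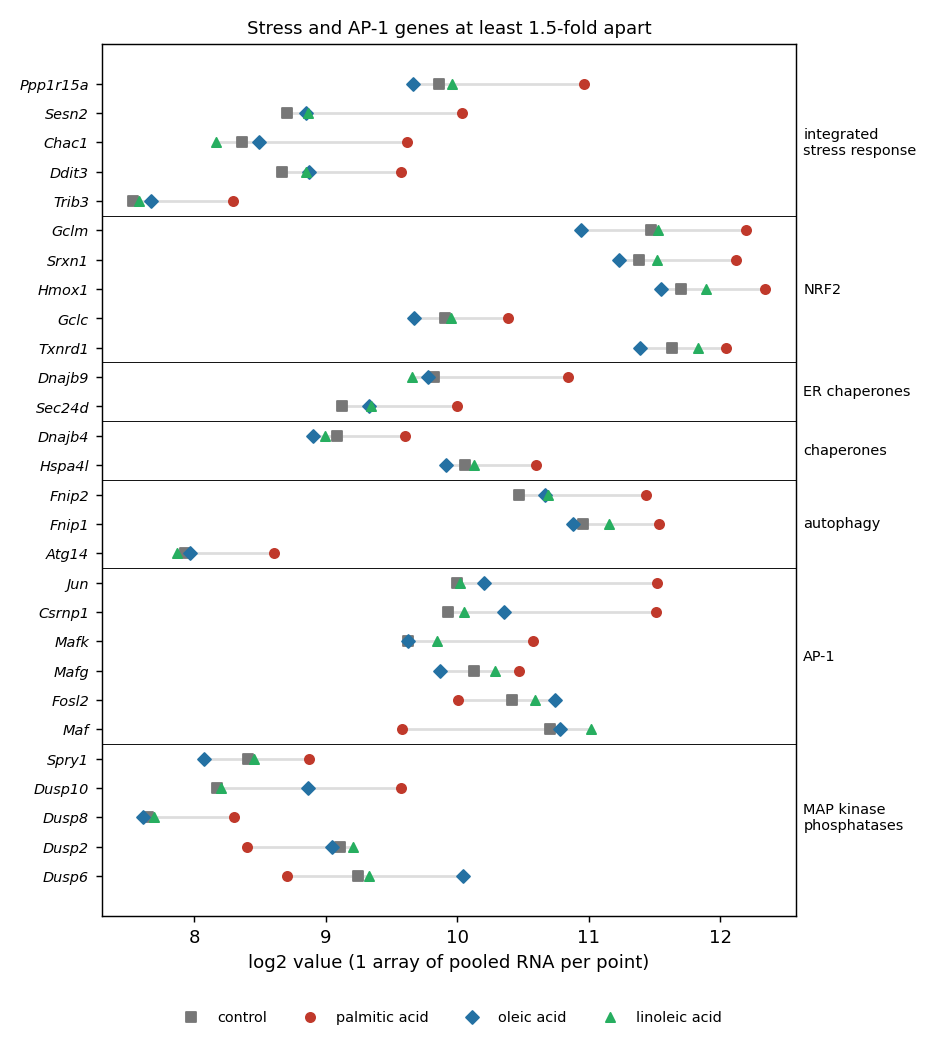
Log2 values (horizontal axis) in the 4 arrays for the members of 7 gene lists that differed by at least 1.5-fold between palmitic and oleic acid, 1 row per gene and 1 point per array, with the list named at the right. Palmitic acid is the highest point in every row except Fosl2, Maf, Dusp2 and Dusp6, where it is the lowest. In the NRF2 rows the oleic acid point is the lowest of the 4.

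In the called NRF2 target genes oleic acid lay below the control and palmitic acid above it. Of 24 kept genes, 5 (20.8%) were called higher with palmitic acid and 0 lower, beside 1.82% and 1.66% of all kept genes. On the list 16 lay above 0, with a median of 0.20. The list had a median of 0.12 for palmitic acid minus the control and of -0.09 for oleic acid minus the control. Gclm and Gclc code for the subunits of glutamate-cysteine ligase, the limiting enzyme of glutathione synthesis. Gclm was at 12.20 with palmitic acid and 10.94 with oleic acid, with the control at 11.47 and linoleic acid at 11.53, a 2.39-fold difference. Gclc followed the same order of arrays at lower values, with 10.38 for palmitic acid and 9.67 for oleic acid, and 9.91 and 9.95 in the control and linoleic acid arrays. In both genes the control and linoleic acid values fell in the middle.

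Srxn1, which codes for sulfiredoxin and repairs oxidised peroxiredoxins, was at 12.12 with palmitic acid, 11.23 with oleic acid, 11.38 in the control and 11.52 with linoleic acid. Hmox1, the gene of heme oxygenase, was at 12.34 with palmitic acid, 11.55 with oleic acid, 11.70 in the control and 11.89 with linoleic acid. Txnrd1, which codes for cytosolic thioredoxin reductase, was at 12.05 with palmitic acid, 11.39 with oleic acid, 11.63 in the control and 11.83 with linoleic acid. In each of the 5 genes the palmitic acid array was highest and the oleic acid array lowest. Nfe2l2, the gene of NRF2 itself, went the other way, at 12.34 with palmitic and 12.65 with oleic acid. Mafg and Mafk, which code for small MAF proteins that pair with NRF2 on DNA, were called higher by 0.60 and 0.95. Mafg fell short of the threshold after a repeated quantile normalisation, at 0.55.

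The antioxidant response element, written here as TGACNNNGC and read on both strands, was searched in the same windows. This spelling can overlap the AP-1 element TGANTCA when both are read from the same TGAC. Other spellings of the antioxidant response element were not searched, so a promoter without a match lacks this spelling alone. Promoters were examined for Gclm, Srxn1 and Txnrd1, and those of Hmox1 and Gclc were not analysed here. Of the 5 promoters examined, 3 held it, namely those of Gclm and Srxn1 and 1 of the 3 of Txnrd1. The share was 12.4% among all promoters and 14.2% among those of kept genes. It was 20.8% among 192 promoters of the genes called higher and 10.2% among 197 promoters of the genes called lower. The AP-1 element showed the opposite order, in 4.17% of promoters of higher genes, 10.2% of lower genes and 5.33% of kept genes. Base composition moved with these shares, and its part in them was not tested. The median GC content was 63.0% for promoters of higher genes, 56.8% for lower genes and 60% for kept genes. The promoters with an upstream match are shown with the match in capitals, 134 bases before the start for Gclm (chr3:122245307-122245556, plus strand) and 92 bases before it for Txnrd1 (chr10:82858956-82859205, plus strand). The match of Srxn1 begins at base 29 after the start, and 30 bases around it are given from chr2:152105542-152105571 on the plus strand.

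Gclm: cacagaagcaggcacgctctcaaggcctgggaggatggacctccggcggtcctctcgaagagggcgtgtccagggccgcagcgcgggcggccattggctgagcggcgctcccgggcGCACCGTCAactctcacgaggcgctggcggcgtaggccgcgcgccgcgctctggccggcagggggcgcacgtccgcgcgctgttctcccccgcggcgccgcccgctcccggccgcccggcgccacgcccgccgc
Txnrd1: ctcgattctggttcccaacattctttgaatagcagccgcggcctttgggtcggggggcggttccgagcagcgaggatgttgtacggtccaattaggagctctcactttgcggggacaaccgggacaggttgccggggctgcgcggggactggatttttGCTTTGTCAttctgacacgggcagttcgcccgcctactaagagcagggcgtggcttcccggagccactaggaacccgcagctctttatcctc
Srxn1: gcagtgggcaGCTAGGTCAgagtgagacac

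AP-1 is a family of dimeric transcription factors made of JUN, FOS, ATF and MAF proteins and activated by MAP kinases. The AP-1 list also holds Csrnp1, which is not one of these proteins. Of its 16 kept genes, 4 were called higher, Csrnp1 among them, and 2 lower. The median was -0.12, so that the list did not differ in one direction. After a repeated quantile normalisation 3 were called higher and 4 lower. Jun was at 11.52 with palmitic acid, 10.20 with oleic acid, 9.99 in the control and 10.02 with linoleic acid, a 2.49-fold difference. Csrnp1, a nuclear protein gene induced by the AXIN and JNK pathways, was at 11.51 with palmitic acid, and its oleic acid value of 10.35 lay above the control at 9.93 and linoleic acid at 10.05. Maf went the other way, at 9.58 with palmitic acid and between 10.71 and 11.02 in the other arrays. Fosl2 was at 10.01 with palmitic acid and 10.74 with oleic acid, and Fos (0.06), Fosl1 (-0.01) and Junb (-0.24) were not called. Jun and Csrnp1 thus stood apart from the FOS genes.

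Among 29 immediate early genes of the EGR, IER and KLF families, 1 was called higher and 5 lower, with a median of -0.10. Zfp36l2, which codes for an mRNA-destabilising protein, was higher by 0.69. Gadd45a, a growth arrest and DNA damage gene, was at 7.88 with palmitic acid and 8.89 with oleic acid, against 9.05 in the control and 9.16 with linoleic acid. Ier2 (-0.80), Ier3 (-0.72) and Klf7 (-0.80) were called lower as well. Klf10, a gene induced by TGF-beta, differed by -0.71, but there the palmitic acid value of 8.86 was near the control at 8.71 and the oleic acid value of 9.56 was the high one. The list therefore holds genes low with palmitic acid and a gene high with oleic acid.

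Dual specificity phosphatases and Sprouty proteins restrain MAP kinase signalling, and their genes went both ways, with 3 of 19 called higher and 2 lower. Dusp6 codes for the phosphatase of ERK and is a common marker of ERK activity. It was at 8.71 with palmitic acid and 10.04 with oleic acid, with the control at 9.25 and linoleic acid at 9.32, so that oleic acid lay above and palmitic acid below the untreated level. Dusp2 differed by -0.65, and fell just short of the threshold after centring over probes with 1 gene, which gave 4 higher and 1 lower in the list. Dusp8 and Dusp10, whose products act on JNK and p38, were higher by 0.70 and 0.71. Dusp10 was at 9.57 with palmitic acid and 8.86 with oleic acid, and both lay above the control at 8.17. Spry1 was higher by 0.80.

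Ccn1 and Ccn2 are matrix protein genes that serum response factor and YAP control. Ccn2 was at 9.89 with palmitic acid, 8.47 with oleic acid, 8.84 in the control and 8.89 with linoleic acid. Ccn1 was at 9.07 with palmitic acid and between 8.11 and 8.28 elsewhere. Lrrc32, which codes for GARP, a docking receptor for latent TGF-beta, was at 10.51 with palmitic acid and between 9.14 and 9.36 elsewhere. These 3 were called higher among 23 genes of the list of serum response factor, YAP and TGF-beta targets. The TGF-beta-induced genes Tgfbi (-0.71) and Id3 (-0.92) were called lower, and the list median was -0.02. Id3 was dim, and with values below the filter level set to it the difference was -0.52.

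Arrdc3 had the largest difference of all kept genes. Alpha-arrestins are adaptors that link membrane receptors and transporters to ubiquitin ligases and so to internalisation, and Arrdc3 is also a target of FoxO factors, which insulin signalling holds inactive. Its value was 7.04 with palmitic acid and 9.35 with oleic acid, with the control at 8.28 and linoleic acid at 8.02. Its difference from the control was -1.24 with palmitic acid and 1.07 with oleic acid. Of the 5 kept alpha-arrestin genes, Arrdc3 was the one called, while Txnip, an alpha-arrestin that restrains glucose uptake, differed by -0.37, Arrdc1 by -0.19, Arrdc2 by -0.06 and Arrdc4 by 0.01. The list had 1 of 5 genes above 0 and a median of -0.19. Its 3 listed promoters held neither the FoxO element GTAAACA nor the E-box CACGTG in these windows, beside shares of 3.65% and 7.15% among all promoters.

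Genes of insulin signalling and other FoxO targets did not share one direction, with 1 of 33 called higher, 5 lower and a median of 0.00. Fbxo32, a ubiquitin ligase gene that FoxO factors activate, was higher by 0.88, at 8.54 with palmitic acid and 7.66 with oleic acid. Bcl6, a transcriptional repressor gene, was lower by a difference of -0.67, and Gadd45a, Ccnd1, Ccnd2 and Arrdc3 completed the lower genes. Irs2, the insulin receptor substrate gene that FoxO factors induce, differed by -0.03. Fbxo32 and Arrdc3, both FoxO targets, thus lay on opposite sides.

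All 3 genes for D-type cyclins, the cyclins that drive passage through G1 in response to growth factors, were called lower with palmitic acid. Ccnd2 was at 10.76 with palmitic acid, 12.29 with oleic acid, 11.77 in the control and 11.82 with linoleic acid, a 2.89-fold difference. Ccnd3 was at 7.68 with palmitic acid and between 8.53 and 8.68 in the other arrays. Ccnd1 was at 7.63 with palmitic acid and 8.27 with oleic acid, with linoleic acid at 7.71 close to palmitic acid and the control at 7.87. In all 3 genes palmitic acid was the lowest and oleic acid the highest of the 4 arrays. Rbl2, a member of the retinoblastoma family, was lower with a difference of -0.60. Ccne1, the cyclin E1 gene of late G1, went the other way, at 10.33 with palmitic acid and 9.40 with oleic acid. Of the 18 kept genes for G1 cyclins and their inhibitors, 1 was thus called higher and 4 (22.2%) lower. The shares of all kept genes were 1.82% and 1.66%. The list median was -0.19. Centring each array on its median over probes with 1 gene left 2 called lower, as Ccnd1 (-0.57) and Rbl2 (-0.53) fell short. With the filter at the 75th percentile 7 genes remained in the list, with 1 called each way and a median of 0.031, so that the direction turned. Of 21 genes for DNA replication and mitosis, Bub1b, a checkpoint kinase gene, was called, at 10.12 with palmitic acid and between 9.07 and 9.11 elsewhere.

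**Figure D4:**
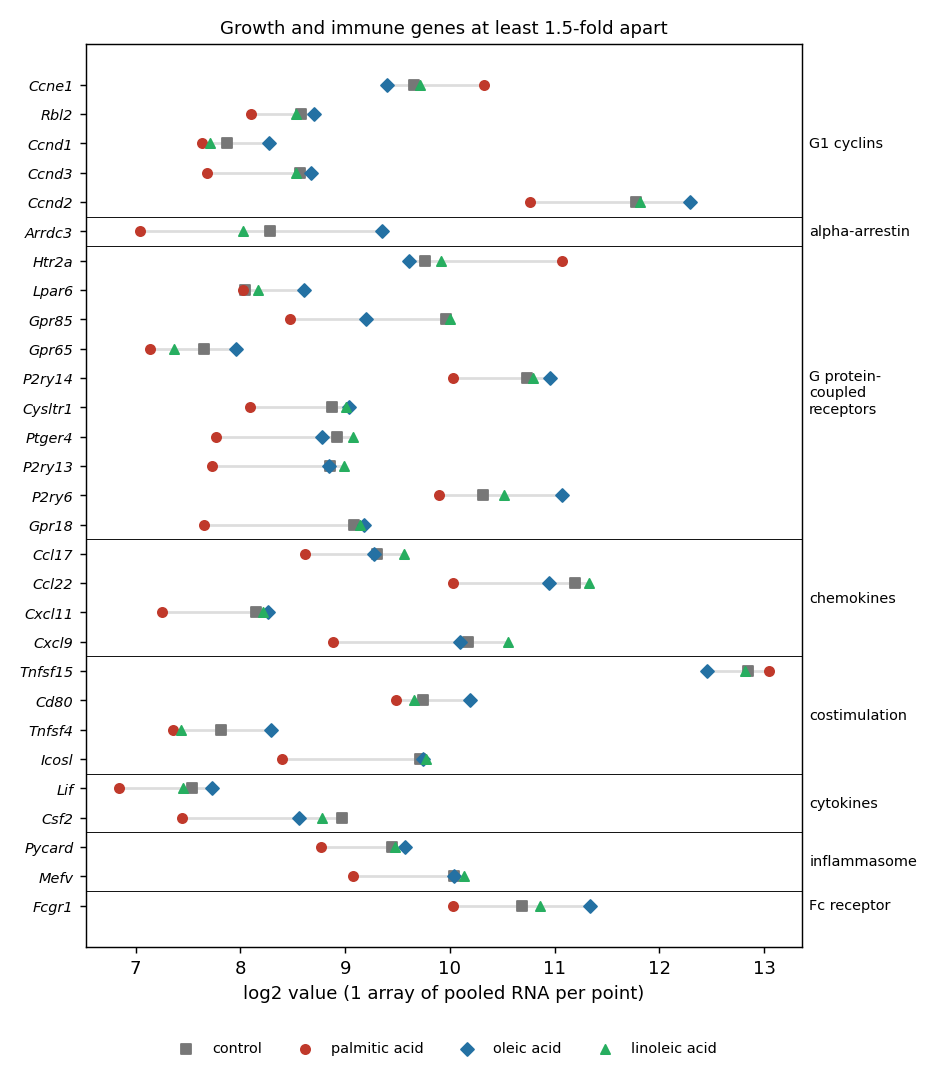
Log2 values (horizontal axis) in the 4 arrays for members of 8 growth and immune gene lists that differed by at least 1.5-fold between palmitic and oleic acid, 1 row per gene and 1 point per array, with the list named at the right. Palmitic acid is the lowest point in every row except Ccne1, Htr2a and Tnfsf15, where it is the highest. Arrdc3 shows the widest gap, from 7.04 to 9.35.

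The lipid droplet genes Hilpda and Plin2 lay close between the arrays. Hilpda, which codes for an inhibitor of triglyceride lipase on lipid droplets, was at 11.49 with palmitic acid and 11.66 with oleic acid, against 9.32 in the control and 9.27 with linoleic acid. Plin2, the main lipid droplet coat gene of macrophages, was at 13.41 and 13.43. Of 25 genes of lipid droplets and triglyceride turnover, 1 was called, Mgll, which codes for monoglyceride lipase and was higher by 0.68. The list median was -0.03. Cd36, the fatty acid transporter gene, differed by -0.05 at a brightness above log2 13. The fatty acid binding protein gene Fabp3 was at 11.79 with palmitic acid and 11.20 with oleic acid, and fell short of the threshold after centring each array on its median (0.57).

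No gene of fatty acid oxidation was called. Of 24 kept genes of the carnitine shuttle and oxidation enzymes, 20 lay below 0, with a median of -0.21 and 0 called, beside -0.02 for all kept genes. Cpt1a, which commits fatty acids to mitochondrial entry, was at 11.66 with palmitic acid and 12.08 with oleic acid, and both lay above the control at 10.73 and linoleic acid at 10.84. Acaa2, the last enzyme of the oxidation cycle, had the largest difference, -0.43, at 9.54 and 9.97. The list ranged up to 0.17 (Etfa). The list of PPAR targets, which overlaps it, had a median of -0.10, with Vnn3 alone called, at 8.79 with palmitic acid and 9.61 with oleic acid.

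The PPAR receptor genes Ppard and Pparg were called higher. Ppard was at 11.16 with palmitic acid and at most 10.50 in the other arrays, a difference from oleic acid of 0.79. Pparg was at 10.21 with palmitic acid and between 9.54 and 9.70 elsewhere, a difference of 0.67. Rora, which codes for a nuclear receptor of the circadian clock, was higher by 0.82. Nr1d1, the gene of its clock antagonist REV-ERB alpha, was lower by a difference of -0.80. Nr1d2, the gene of REV-ERB beta, went the other way at 0.49, short of the threshold. Rarg, a retinoic acid receptor gene, differed by -0.76. Among the 20 nuclear receptor genes, 3 were thus called higher and 2 lower, with a median of -0.01.

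Insig1 separated palmitic from oleic acid among the sterol genes. INSIG1 retains SREBP precursors in the endoplasmic reticulum and is itself an SREBP target. Its gene was at 12.41 with palmitic acid and 11.44 with oleic acid, with the control at 12.23 and linoleic acid at 12.45, so that oleic acid alone was low. It was the 1 gene called among 13 for SREBP, INSIG and sterol import, which had a median of 0.22. Cholesterol synthesis enzymes had 13 of 18 above 0, a median of 0.13 and 0 called. Their medians against the control were -0.59 for palmitic and -0.84 for oleic acid, 2 values that share the control array. Mvd, the mevalonate decarboxylase gene, showed the largest difference of these enzymes, 0.41, at 9.16 with palmitic acid and 8.75 with oleic acid against 9.75 in the control. Pdp2, which codes for a phosphatase that activates pyruvate dehydrogenase, followed the pattern of Insig1, at 7.50 with oleic acid and between 8.11 and 8.22 in the other arrays.

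Genes of membrane lipid synthesis held few calls. Pcyt1a, which codes for the limiting enzyme of phosphatidylcholine synthesis, was at 11.39 with palmitic acid and between 10.34 and 10.46 elsewhere. Lpcat1, an acyltransferase gene that places saturated chains into phosphatidylcholine, was at 8.49 with palmitic acid, 9.64 with oleic acid and 9.36 in both other arrays. They were the only called genes of 25 on the list of phospholipid synthesis and remodelling. Ugcg, the gene of glucosylceramide synthase, was the only one called of 23 for ceramide and sphingolipids, at 12.41 with palmitic acid and 11.80 with oleic acid, with 11.49 in the control. Of 17 genes of fatty acid synthesis, desaturation and elongation, 0 were called, with a median of 0.04. Scd2, the desaturase gene, was at 9.87 with palmitic acid and 9.46 with oleic acid, against 11.15 in the control.

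Most called genes for G protein-coupled receptors were lower with palmitic acid. Of 29 kept genes, 9 (31.0%) were called lower and 1 higher, beside 1.66% and 1.82% of all kept genes. The list median was -0.24. This list too was chosen with earlier results of these data known, so nothing is read from its share. Gpr18, a receptor for lipid mediators, was at 7.65 with palmitic acid and between 9.09 and 9.18 in the other arrays, a 2.90-fold difference from oleic acid. The purine receptor genes P2ry13 and P2ry14, with ligands that include ADP and UDP-glucose, were at 7.72 and 10.03 with palmitic acid and at 8.85 and 10.96 with oleic acid. P2ry6, the UDP receptor gene, was at 9.89 with palmitic acid and 11.07 with oleic acid, with the control at 10.31 and linoleic acid at 10.51. In P2ry6 much of the gap lay on the oleic acid side, whereas Gpr18 and P2ry13 were low with palmitic acid alone.

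Ptger4, a prostaglandin E2 receptor gene, was at 7.76 with palmitic acid and between 8.78 and 9.07 in the other arrays. Cysltr1, a receptor gene for cysteinyl leukotrienes, was at 8.09 with palmitic acid and between 8.87 and 9.04 elsewhere. Gpr65, an acid-sensing receptor gene, differed by -0.82. Gpr85 differed by -0.73, and in that gene oleic acid at 9.20 was itself below the control at 9.97. Lpar6 lay at the threshold (-0.59), with palmitic acid at 8.02 beside the control at 8.05. Htr2a, the serotonin 2A receptor gene, was the 1 called higher, at 11.07 with palmitic acid and 9.61 with oleic acid, with the control at 9.76 and linoleic acid at 9.91. P2ry2 (0.55) and Cxcr4 (0.54) lay short of the threshold on the same side. With a filter at the 75th percentile of all values, 7 of 19 receptor genes were called lower, with a median of -0.50, and with no filter 9 of 43, with a median of -0.10. Centring over probes with 1 gene gave 3 of the 29 higher and 8 lower, with Lpar6 at -0.52.

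Chemokine genes showed 4 called lower of 21 (19.0%) and 0 higher, beside 1.66% and 1.82% of all kept genes. Cxcl9 and Cxcl11 code for interferon-induced ligands of CXCR3 on T cells. Cxcl9 was at 8.88 with palmitic acid, 10.09 with oleic acid, 10.17 in the control and 10.56 with linoleic acid. Cxcl11 was at 7.25 with palmitic acid and between 8.15 and 8.26 elsewhere. Ccl17 and Ccl22, ligands of CCR4, were at 8.62 and 10.03 with palmitic acid and at 9.27 and 10.95 with oleic acid. Palmitic acid was the lowest of the 4 arrays in all of these. The list median was -0.07, however, and interferon-stimulated genes as a list did not go with Cxcl9, since 17 of 27 lay above 0 and Mx2, an antiviral GTPase gene, was called higher by 0.80.

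Of 18 costimulatory and checkpoint ligand genes, 3 (16.7%) were called lower and 1 higher, beside 1.66% and 1.82% of all kept genes. On this list 13 lay below 0 and 5 above, with a median of -0.11. Cd86 (0.38) and Cd274 (0.31) were among those above 0, and palmitic acid was the highest of the 4 arrays in both. Icosl, the ligand gene for ICOS on T cells, was at 8.39 with palmitic acid and between 9.71 and 9.77 in the other arrays. Tnfsf4, the gene of OX40 ligand, was at 7.36 with palmitic acid and 8.30 with oleic acid, with the control at 7.82 and linoleic acid at 7.43. Cd80 was at 9.48 and 10.19, and its brightest probe alone gave -0.50. Tnfsf15 was called higher by 0.60, but fell short of the threshold at 0.58 with each array centred on its median. Icosl was thus low with palmitic acid alone. Cd80 lay further from the control with oleic acid (0.45) than with palmitic acid (-0.26). For Tnfsf4 the distances were similar and on opposite sides, at 0.48 with oleic and -0.46 with palmitic acid.

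Inflammatory cytokine genes mostly lay close between the arrays. Il1b differed by -0.13, Tnf by 0.21 and Il6 by -0.17, at log2 values above 12 in both arrays. Il1b and Tnf lay near the highest value of any probe, 14.44 with palmitic and 14.38 with oleic acid. Whether values that bright understate a difference was not tested. Of 25 cytokine genes, 2 were called lower and 0 higher. Csf2, which codes for GM-CSF, was at 7.44 with palmitic acid and 8.56 with oleic acid, with the control at 8.97 and linoleic acid at 8.78. Lif was at 6.84 and 7.73, and its palmitic acid value lay below the filter level. Of 14 inflammasome genes, Pycard, the gene of the adaptor ASC, was lower with a difference of -0.80 and Mefv, the gene of pyrin, with -0.96. Of 28 genes of Toll-like receptor signalling, the adaptor gene Ticam1 was higher by 0.82 and Tlr8 lower with -0.60, or -0.53 and no longer called after centring over probes with 1 gene.

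Fcgr1 codes for the high-affinity receptor for IgG. It was at 10.03 with palmitic acid and 11.34 with oleic acid, with the control at 10.69 and linoleic acid at 10.86, so that both fatty acids lay away from the control in opposite directions. It was the 1 gene called among 7 Fc receptor genes, of which 0 lay above 0 and Fcgr3 was next at -0.45. Tagap, a GTPase-activating protein gene of activated leukocytes, was at 9.59 with palmitic acid and between 10.80 and 10.98 in the other arrays. Samsn1, an adaptor gene of immune cells, was at 8.98 with palmitic acid and between 10.14 and 10.23 elsewhere. Smpdl3b, a lipid-modifying phosphodiesterase gene, was at 7.85 with palmitic acid and 9.08 with oleic acid, with the control at 8.72. Tagap and Samsn1 differed at palmitic acid alone, and Smpdl3b mostly so.

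Several metabolic and transport genes among the lower ones carried high oleic acid values. Slc16a6, a transporter gene of the monocarboxylate family, was at 8.68 with palmitic acid and 10.02 with oleic acid, with the control at 9.31 and linoleic acid at 9.04. Cyp1b1, a cytochrome P450 gene induced by the aryl hydrocarbon receptor, was at 8.20 and 9.43, with the control at 8.83 and linoleic acid at 9.13. Odc1 and Smox code for enzymes that make and oxidise polyamines. Smox was at 10.20 with palmitic acid and 10.82 with oleic acid, and both lay above the control at 9.58. Its difference of -0.62 fell short of the threshold, at -0.55, after centring over probes with 1 gene. Odc1 was at 8.89 and 9.71, on opposite sides of the control at 9.21. Azin1, whose product stabilises ornithine decarboxylase, was higher with palmitic acid by 0.64. Xpo1, the nuclear export receptor gene, was at 9.87 with palmitic acid and 11.08 with oleic acid, and Upp1, a uridine phosphorylase gene, at 9.17 and 10.38. In these genes the oleic acid value was the highest of the 4 arrays, except in Azin1, where it was the lowest.

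The called metal-handling genes were lower with palmitic acid, except Hmox1 of the iron list, described above. Of 16 metallothionein and zinc transporter genes, 0 were called higher and 2 lower. That list leaned the other way, with 10 genes above 0, 6 below and a median of 0.19, and its highest was Slc30a1 at 0.57. Of 17 iron-handling genes, 1 was called higher and 2 lower, with a median of -0.08. Mt2, a metallothionein gene, was at 11.99 with palmitic acid and 12.72 with oleic acid, and the zinc transporter gene Slc30a4 differed by -0.60, or -0.54 after centring over probes with 1 gene. Cp, the gene of the ferroxidase ceruloplasmin, was at 8.81 with palmitic acid, 9.54 with oleic acid, 10.09 in the control and 10.44 with linoleic acid. Lcn2, which codes for an iron-sequestering lipocalin, was at 10.85 and 11.72. Hamp, the hepcidin gene, was at 9.31 and 9.28, above the control at 7.99 in both arrays. Of 28 genes of glycolysis and the hypoxia response and 34 subunits of oxidative phosphorylation, 0 were called, with medians of 0.03 and -0.12. The 11 reference genes had a median of 0.01 and 0 called.

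The remaining lists held few calls. Rnf145 and Tnfaip8l3, which code for a sterol-regulated ubiquitin ligase and a lipid transfer protein, were lower among 14 LXR target and cholesterol efflux genes, with differences of -0.75 and -0.62. Tnfaip8l3 fell short at -0.55 when each array was centred on its median over probes with 1 gene. Rnf145 was at 10.18 with palmitic acid and between 10.93 and 11.12 in the other arrays. Fas, the death receptor gene, was the 1 called of 16 genes of the BCL2 family and death receptors, at 8.63 with palmitic acid and between 9.34 and 9.54 elsewhere. Both genes were low with palmitic acid alone. Of 8 CD300 receptor genes, 20 scavenger and efferocytosis receptor genes and 14 genes of prostaglandin and leukotriene synthesis, 0 were called.

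**Figure D5:**
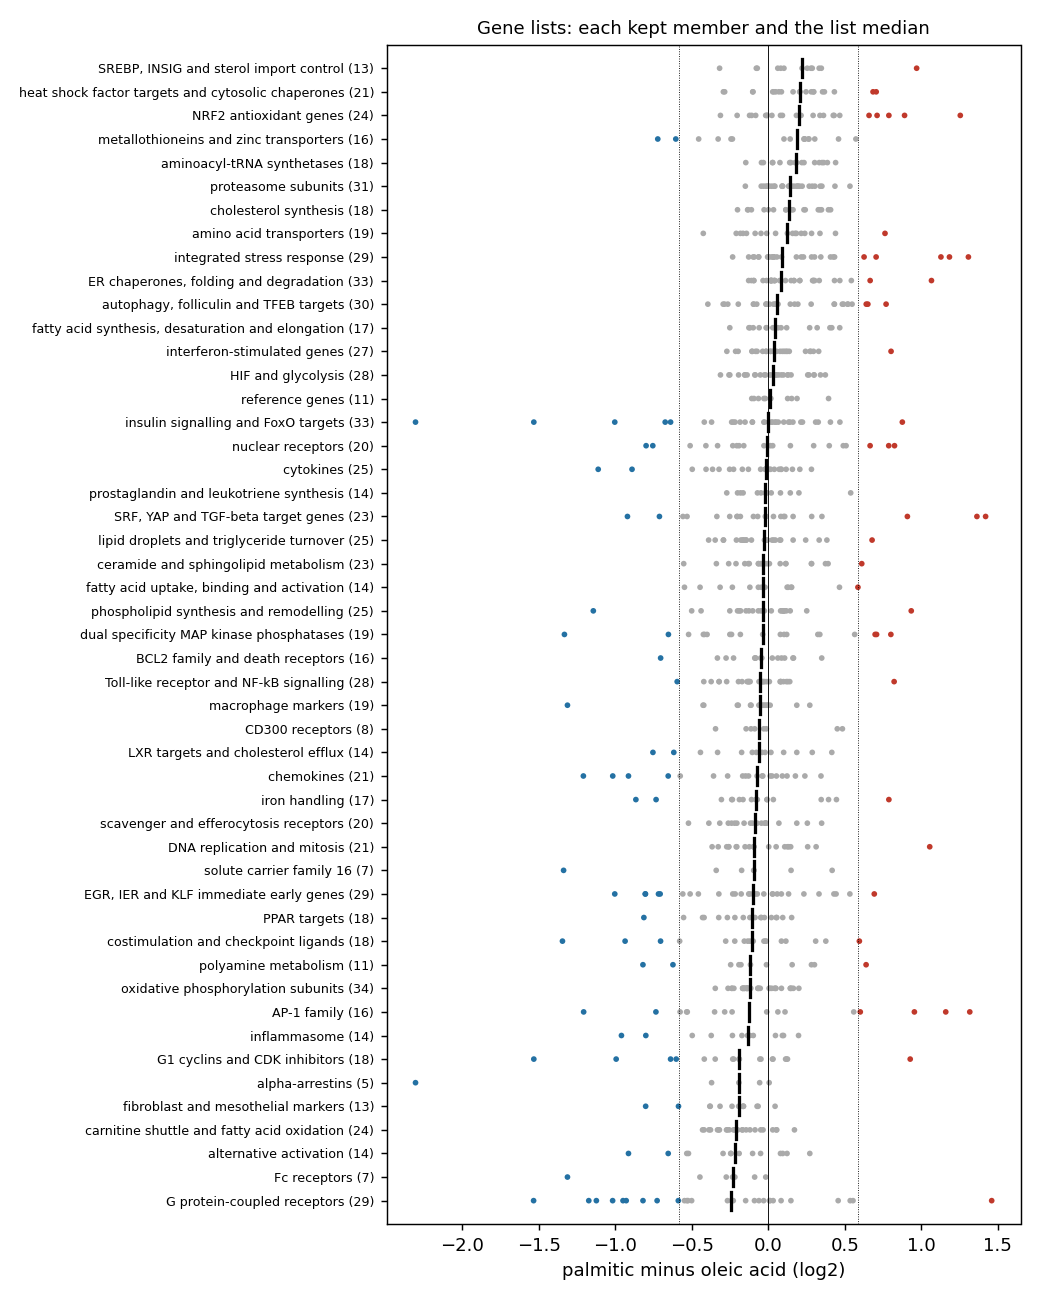
Palmitic minus oleic acid difference (log2, horizontal axis) for each kept member of the gene lists with at least 5 kept members. Black bars mark list medians and dotted lines 1.5-fold, with members beyond these lines in red (higher with palmitic acid) or blue (lower), and the number of kept members stands in brackets. Medians run from -0.24 for G protein-coupled receptors to 0.22 for SREBP, INSIG and sterol import, so that single genes lie much further from 0 than any list median.

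Across all 55 lists, 919 distinct kept genes were examined, of which 45 (4.90%) were called higher and 56 (6.09%) lower, beside 1.82% and 1.66% of all kept genes. The lists were chosen with earlier results of these data known, so nothing is read from this gap. The medians of 16 lists, all within 0.06 of 0, changed sign or reached 0 under at least 1 of 3 other scalings, among them those of lipid droplets, cytokines, nuclear receptors, insulin signalling, phospholipids and macrophage markers, so that no direction is given for them. Markers of the labelled cell type were bright in all arrays. The 19 macrophage markers, all at or above the filter level, summed on the linear scale to 132753 with palmitic acid, 139952 with oleic acid, 137119 in the control and 135595 with linoleic acid, and Fcgr1 was the 1 called. On a joint list of fibroblast and mesothelial markers, 13 of 19 were at or above the filter level. Of these 13, 12 lay below 0, and their median was -0.19. The mesothelial markers Upk3b, Krt19 and Lrrn4 lay below the filter level in all arrays. Msln, another, reached it with oleic acid alone, at 7.10. Pdgfra was at 8.33 with palmitic acid and 9.13 with oleic acid, and Pdgfrb at 8.74 and 9.33. After centring over probes with 1 gene the difference of Pdgfrb was -0.52, short of the threshold. All 19 markers of the joint list summed to 15463 with palmitic acid, 16534 with oleic acid, 17247 in the control and 18064 with linoleic acid. These markers moved in the same direction as the lower receptor, chemokine and cyclin genes, and their part in those results was not tested. The lean was not particular to them. Of the 19 macrophage markers 16 also lay below 0, with a median of -0.06 that changed sign with the scaling. All 4 kept neutrophil and all 4 kept dendritic cell markers lay below 0 too. The 1 kept B cell marker and the 2 kept T and NK cell markers lay above 0. Neutrophil markers summed to 3899 with palmitic acid and 4433 with oleic acid, with 4 of 11 at or above the filter level and S100a9 and Retnlg below it. Markers of eosinophils and mast cells summed to 1627 and 2498, with 3 of 13 at or above the filter level, Cpa3 below it and Hdc the 1 called, at 9.27 and 10.46. Hdc made up most of that gap, since the other 12 markers summed to 1008 and 1091. Of 9 B cell markers 1 reached the filter level, and Ms4a1 and Cd79a did not. Of 10 T and NK cell markers 2 reached it, and their sums lay between 725 and 741 in the 4 arrays. Of 9 dendritic cell markers 4 reached it, and of 6 endothelial and erythroid markers 2.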

How the data were processed

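Log2 expression values of 4 arrays, 1 per group, were deposited by the authors and, per the submitters' processing notes, made with RMA (background correction, quantile normalisation and summary of probes). Version, build and summary level: not given in the sources used here. Of 35556 probes, 21789 had 1 gene, 1621 several and 12146 no gene in the annotation. Entrez IDs of 21698 probes matched a RefSeq table (GRCm38.p6), with 0 symbols to update. RefSeq also gave the promoters. Differences were taken in Python 3.11.15 with pandas 2.3.3 and numpy 2.4.6, and the counting was tested on simulated data. Without replicates no depth, error or test could be had, and the number of arrays limits the precision. Members, lists and motifs were chosen with earlier results of these data known. Named are the 15 genes furthest each way (558 predicted, small RNA and receptor cluster names left out), all called list members, set reference members of each list, and 5 genes each way with palmitic or oleic acid furthest from all other arrays. Any other gene was named after its values were seen. Alternatives changed scaling, filter, probe choice, floor and the probes counted.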

Additional observations from a re-analysis of the deposited data

Results flagged for a closer look

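In 4 genes the palmitic and oleic acid arrays lay at least 1.5-fold away from the control on opposite sides, and this difference between the fatty acids was not tested. Arrdc3 differed by -2.31 between palmitic and oleic acid, at -1.24 and 1.07 from the control. Slc16a6 differed by -1.34, at -0.63 and 0.71 from the control. Fcgr1 differed by -1.31, at -0.66 and 0.65 from the control. Cyp1b1 differed by -1.23, at -0.63 and 0.60 from the control.

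Probes with no listed gene also carried differences. Of 5620 such probes at or above the filter level, 833 (14.8%) exceeded their oleic acid value by at least 1.5-fold in the palmitic acid array, and 46 (0.819%) were as far below it. They were concentrated among probes numbered below the lowest listed probe, a split made after the data were seen. There, 791 of 3532 probes were higher and 25 lower, with a median of 0.22. Among the 2088 unlisted probes with higher numbers, 42 were higher and 21 lower, with a median of -0.04. In the low-numbered group the median log2 value was 8.48 for palmitic and 8.39 for linoleic acid, beside 8.20 for the control and 8.14 for oleic acid. Linoleic acid was thus also high there, with 269 probes above and 69 below the control. What these probes measure is not given in the sources used here, and they entered no gene value, although they took part in the scaling of all values.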

How the results depend on the processing

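The counts of genes beyond 1.5-fold or 2-fold stayed within 1.5 times in the 7 alternatives for scaling, filter, probe choice and floor. Further settings moved the number of higher genes, from 203 to 1040 when probes of several or no listed genes were counted as features, and to 313 with each array centred on its median over probes with 1 gene, a setting chosen after seeing the data. The share of higher genes became 42.5% after a repeated quantile normalisation and 70.3% with the latter centring. Of 116 named genes past 1.5-fold, 16 fell short of it in some alternative, 9 of them under that centring, and 0 changed sign; 20 were not in the table with a filter at the 75th percentile. Of 55 list medians, 15 moved by over 0.1. With that filter they became 0.20 for the integrated stress response, 0.17 for autophagy, -0.26 for AP-1, -0.24 for dual specificity phosphatases, 0.031 for G1 cyclins, 0.13 for DNA replication, 0.30 for nuclear receptors, -0.50 for G protein-coupled receptors, 0.019 for polyamines and -1.19 for eosinophil and mast cell markers. With no filter they became -0.010 for AP-1, -0.10 for G protein-coupled receptors, -0.10 for alternative activation, 0.014 for B cells, -0.12 for neutrophils, -0.051 for eosinophils and mast cells and -0.035 for endothelial markers. With low values set to the filter level the SREBP and INSIG median became 0.10. In the main setting the medians were -0.09 for DNA replication and -0.12 for polyamines. The filter at the 75th percentile thus turned their direction, as it did for G1 cyclins and nuclear receptors. For endothelial and erythroid markers the main median was 0.19, and the setting with no filter turned it. No replicate could be left out. No paired analysis was possible because each group has 1 array.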
